A study of Mus musculus with 2 samples.

Results

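ATAC-seq peaks whose centre lay inside a protein-coding exon far from any gene start were examined in the organ of Corti, the sensory epithelium of the cochlea, of newborn mice. ATAC-seq cuts nuclei with a transposase that inserts adapters where DNA is accessible, and a peak is a stretch with more inserted fragments than the local background. The study compared wild-type (WT) mice with Bmi1-/- (Bmi1 KO) mice at postnatal day 2, with 1 library per genotype, each from 10 pooled mice. Bmi1 encodes a subunit of Polycomb repressive complex PRC1, which holds many developmental genes silent, and the knockout is given as homozygous, with no tissue-specific driver named. A peak was counted here when its centre lay in a coding segment (CDS) of GENCODE vM21 on chromosomes 1 to 19 of GRCm38 and more than 3 kb from every annotated transcription start site (TSS). This gave 1757 of 77092 peaks in the list labelled WT (2.28%, exact 95% interval 2.17 to 2.39) and 2174 of 99683 in the list labelled Bmi1 KO (2.18%, 2.09 to 2.27). With 1 library per genotype there was no replicate spread, no test between genotypes was possible, and all intervals cover counting error only.

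In the list labelled WT, 100% of peak names began with bko, and in the list labelled Bmi1 KO 100% began with bwt, the opposite of the genotype labels. The larger list is the one labelled Bmi1 KO. The lists are called the WT list and the Bmi1 KO list by their labels, and any direction between them depends on those labels. The Bmi1 KO list had a lowest background of 8.04 reads at a summit against 6.32 in the WT list, a ratio of 1.27, and the part of this difference in the list sizes was not tested. Promoter peaks, those within 3 kb of a TSS, were found at 13 of 15 marker genes of the sensory epithelium in the WT list and 14 of 15 in the Bmi1 KO list, and Lfng had none in either. Markers of endothelium had promoter peaks at 4 of 5 genes in both lists, of neurons at 3 and 4 of 5, of glia at 2 and 3 of 5, of mesenchyme at 3 of 5 in both and of blood and macrophages at 1 of 5 in both. Of all 20807 protein-coding genes on chromosomes 1 to 19, 61.5% had such a peak in the WT list and 70.6% in the Bmi1 KO list, so a promoter peak at a marker does not by itself show that a cell type was present. In bulk tissue, fewer cells with an open site and less opening per cell cannot be told apart.

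Coding exons are the stretches of a gene that are translated into protein. They are richer in G and C than the introns around them, and their bases are held by the protein they encode. Some coding exons also carry enhancers that act on the same or a neighbouring gene, and some lie near unannotated start sites. Accessible DNA in them is usually a small share of an ATAC-seq library, because most peaks lie at promoters, in introns or between genes.

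The strongest of these peaks lay over Emp2, which encodes a tetraspan membrane protein of epithelia. It is on the minus strand of chromosome 16, at chr16:10281749-10313968, and its 516-bp coding sequence is split over exons 2 to 5. The coding parts are printed in the direction of the gene, because the peaks in both lists followed them. Capitals mark coding bases, and the lower-case flanks are 20 bases on each side. They lie, from exon 2 to exon 5, at chr16:10292242-10292359, chr16:10288035-10288180, chr16:10285435-10285621 and chr16:10284411-10284635 of GRCm38.
Emp2 exon 2: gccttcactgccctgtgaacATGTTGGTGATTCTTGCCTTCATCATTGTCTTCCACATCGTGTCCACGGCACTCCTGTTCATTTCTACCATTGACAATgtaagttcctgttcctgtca
Emp2 exon 3: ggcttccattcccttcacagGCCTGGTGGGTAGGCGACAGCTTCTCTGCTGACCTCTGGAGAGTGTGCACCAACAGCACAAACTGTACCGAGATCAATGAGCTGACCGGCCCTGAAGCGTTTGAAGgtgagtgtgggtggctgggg
Emp2 exon 4: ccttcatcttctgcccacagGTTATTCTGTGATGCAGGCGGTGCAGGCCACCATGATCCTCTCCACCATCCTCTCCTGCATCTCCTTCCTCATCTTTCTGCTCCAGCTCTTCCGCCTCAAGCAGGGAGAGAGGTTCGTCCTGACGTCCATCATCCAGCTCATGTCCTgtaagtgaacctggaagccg
Emp2 exon 5: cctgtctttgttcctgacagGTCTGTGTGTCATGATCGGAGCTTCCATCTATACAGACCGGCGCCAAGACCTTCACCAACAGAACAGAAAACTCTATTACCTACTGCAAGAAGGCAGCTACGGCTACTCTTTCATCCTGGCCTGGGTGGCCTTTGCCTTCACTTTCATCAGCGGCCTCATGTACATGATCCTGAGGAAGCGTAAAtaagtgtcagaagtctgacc

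All 4 coding exons of Emp2 held a peak in both lists, and these were the 4 strongest distal coding-exon peaks of each list by −log10 p. Over exon 4, which is wholly coding, the summit held 259 reads in the WT list and 255 in the Bmi1 KO list, 11.8 and 11.5 times the background with a pseudocount of 1. Over exon 5 the summits held 248 and 239 reads, over exon 3 170 and 163 reads, and over exon 2, whose coding part is the shortest at 78 bp, 92 and 95 reads. By −log10 p, the next gene in the WT list was Muc6 with 39 reads, and the next in the Bmi1 KO list was Eppk1 with 40 reads. Among all peaks on chromosomes 1 to 19, the Emp2 peaks ranked from 4 to 61 by −log10 p in the WT list and from 8 to 71 in the Bmi1 KO list. Their −log10 p values ran from 50.3 to 182 and from 49.4 to 176.

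The extent of the Emp2 peaks followed the coding bases. Each peak end lay 48 to 91 bp outside the coding part, in both lists. Exon 5 is 2867 bp long, of which 185 bp are coding, and its peak ended 53 bp past the coding part in the WT list and 48 bp past it in the Bmi1 KO list, leaving the rest of the exon without a peak. Over exon 2, which is 163 bp long with its noncoding part upstream, the peak ended 2 bp inside the upstream exon end in the WT list and 6 bp outside it in the Bmi1 KO list, so it also spanned the noncoding part. That end lay 83 bp outside the coding part in the WT list and 91 bp outside it in the Bmi1 KO list. Exons 3 and 4 are wholly coding, and their peaks ended 77 to 86 bp outside the exon. Among the exons with a peak it was thus exons 2 and 5 that told coding extent and exon extent apart. The 157-bp noncoding exon 1 had no peak in either list. In the WT list no other peak lay in the gene, and in the Bmi1 KO list 1 other peak did, at percentile 9.57 of that list by −log10 p. Both ends within this range outside the coding segment were seen for 66 of the 1753 other distal coding-exon peaks of the WT list (3.76%, 2.92 to 4.77). In the Bmi1 KO list they were seen for 61 of 2170 (2.81%, 2.16 to 3.60), with the range taken from the Emp2 peaks themselves. Only a peak that covered its whole coding segment could meet this, as 615 of the 1753 and 758 of the 2170 did. The 516 coding bases matched only their own locus in the chromosomes of GRCm38, at 100% identity. A search of that assembly cannot find a copy that is absent from it, and the origin of the Emp2 reads was not tested.

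**Figure D1:**
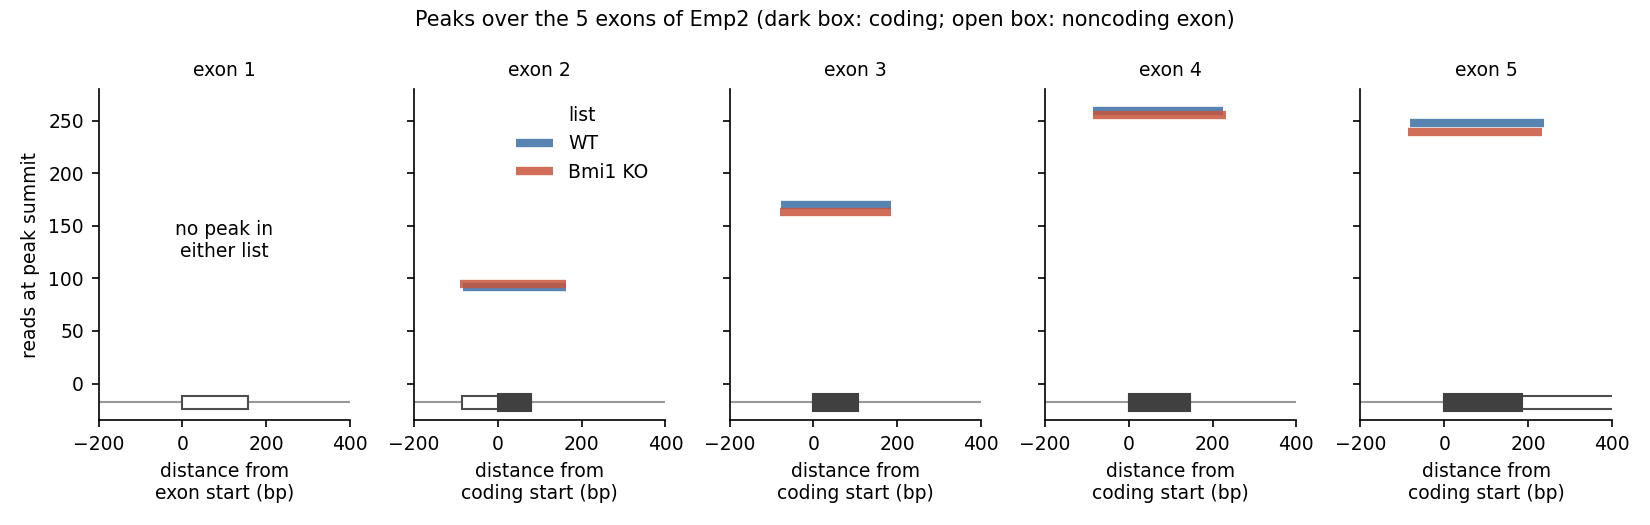
Peaks over the 5 exons of Emp2, with the horizontal axis giving the distance in bp from the start of the coding part (exon 1: from the exon start) in the direction of the gene and the vertical axis the reads at the summit. Each coloured bar spans 1 peak (blue WT list, red Bmi1 KO list), from 92 reads over exon 2 to 259 over exon 4, and the boxes at the bottom show coding (dark) and noncoding (open) exon bases.

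Emp2 reads were nearly equal in the lists. The ratio of reads in the Bmi1 KO list to reads in the WT list was 0.974 at the median of its 4 pairs of overlapping peaks, with a range of 0.959 to 1.03. For the other 302 pairs of overlapping distal coding-exon peaks the median ratio was 1.18, with quartiles of 1.05 and 1.33. Their range was 0.806 to 2.27, beside the ratio of 1.27 between the lowest backgrounds of the lists. Of these pairs, 21 lay in the Emp2 range, 41 below it and 240 above it. Backgrounds at the Emp2 peaks were above the lowest, at 11.5 to 21.9 reads in the WT list and 12.7 to 22.8 in the Bmi1 KO list. Emp2 was the only gene with overlapping peaks on more than 2 exons: 284 genes had them on 1 exon and 3 genes on 2.

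**Figure D2:**
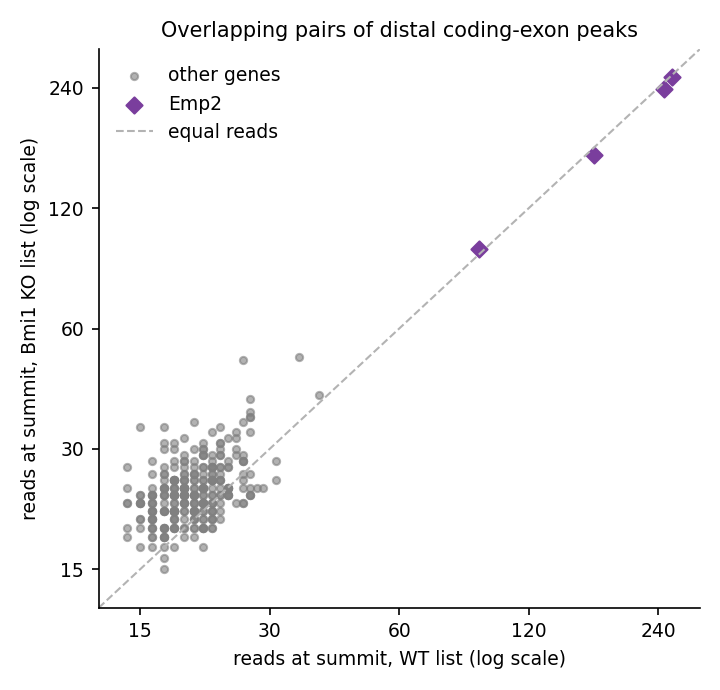
Reads at the summit in the WT list (horizontal, log scale) and the Bmi1 KO list (vertical, log scale) for the 306 pairs of overlapping distal coding-exon peaks, with the dashed line marking equal reads. The 4 Emp2 pairs (diamonds) lie between 92 and 259 reads close to the line, and the 302 pairs of other genes (dots) lie far below them and mostly above the line.

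Away from Emp2, distal coding-exon peaks were of middling strength and few were strong. The median summit held 19 reads in the WT list and 22 in the Bmi1 KO list, and the highest outside Emp2 held 64 and 51. The median percentile of −log10 p within the list was 48.5 and 49.9, against 46.4 and 44.0 for intronic peaks and 56.8 and 62.6 for promoter peaks. A q-value under 0.05 was reached by 897 of the 1757 peaks in the WT list (51.1%, 48.7 to 53.4) and 1352 of the 2174 in the Bmi1 KO list (62.2%, 60.1 to 64.2), near the 52.4% and 62.7% of all peaks in each list. A −log10 q of 5 was reached by 11 (0.626%, 0.313 to 1.12) and 23 (1.06%, 0.672 to 1.58), and without Emp2 by 7 and 19, against 1.59% and 4.19% of all peaks. Among intronic peaks it was reached by 128 of 25460 and 233 of 32368. Without Emp2, 8.27% and 5.30% lay in the top 10% of their lists by −log10 p, and 0.057% and 0.138% in the top 1%. Of intronic peaks 6.32% and 4.41% lay in the top 10%, and 0.346% and 0.151% in the top 1%. Of promoter peaks 16.5% and 20.9% lay in the top 10%. A low share of strong peaks was thus not particular to distal coding exons.

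Counting peaks of all strengths, distal coding exons held more peaks per length than any of the 4 other classes of sequence. They cover 17.4 Mb, 0.727% of chromosomes 1 to 19, and held 101 peaks per Mb in the WT list (96.3 to 106) and 125 in the Bmi1 KO list (120 to 130). The lists differ in size, and with an equal number of peaks taken from each by −log10 p the distal coding-exon peaks numbered 1757 and 1683, so the order of the lists turned. Promoters, all sequence within 3 kb of a TSS, held 67.2 and 84.5 per Mb. Distal noncoding exons held 36.9 and 49.2, introns 30.4 and 38.7, and intergenic sequence 20.3 and 27.6. The ranking against promoters did not hold for strong peaks. At a −log10 q of at least 5, distal coding exons held 11 and 23 peaks, against 868 and 3527 in the 384 Mb of promoters, so promoters were denser. Over all strengths, the density in distal coding exons was 3.32 times that of introns in the WT list and 3.23 times in the Bmi1 KO list. By chromosome it ran from 70.0 per Mb on chromosome 3 to 140 on chromosome 7 in the WT list, and from 103 on chromosome 10 to 154 on chromosome 8 in the Bmi1 KO list. Coding-exon peaks on either side of the TSS limit were of like strength. Those between 2 and 3 kb from a TSS had a median percentile of 47.1 and 50.8 in the 2 lists. Those between 3 and 4 kb had 48.6 in both, and density was not compared across the limit.

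**Figure D3:**
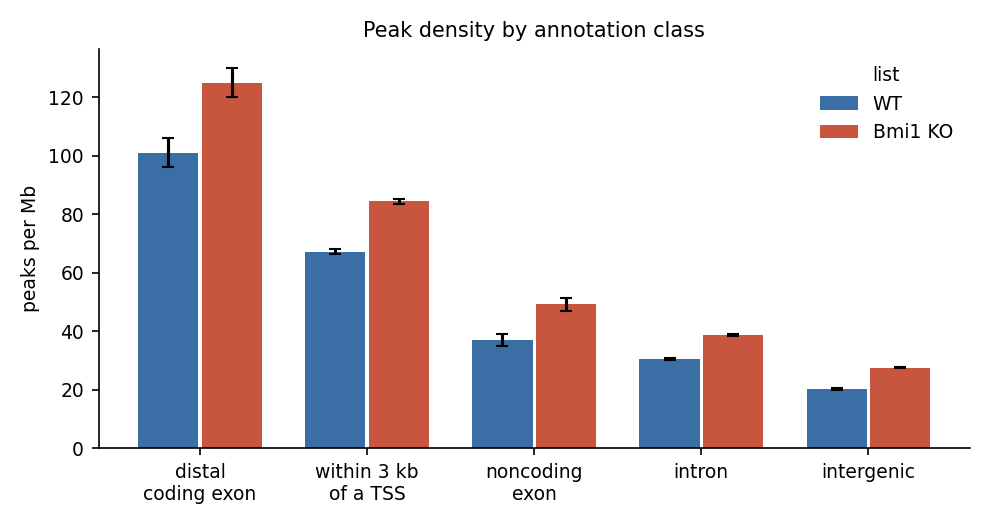
Peaks per Mb (vertical axis) in 5 classes of sequence on chromosomes 1 to 19, with bars for the WT list (blue) and the Bmi1 KO list (red) and error bars for exact Poisson 95% intervals. Peaks of all strengths are counted. Distal coding exons stand highest, at 101 and 125 per Mb, and intergenic sequence lowest, at 20.3 and 27.6.

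Base composition moved with this density. In a window of the summit and 100 bases to each side, the median G+C of distal coding-exon peaks was 57.2% in both lists, against 51.2% and 51.7% for intronic peaks, 49.3% for windows tiled over all distal coding sequence and 42.3% for windows tiled over introns. The CpG count was also higher, with a mean of 3.05 and 3.09 per 100 bases against 1.24 and 1.23 at intronic peaks. In the tiled windows the mean was 2.15 over distal coding sequence and 0.81 over introns. When coding and intronic windows of like G+C were compared, the densities drew together. Between 40 and 45% G+C, with 25 coding-exon peaks in each list, the ratio of coding to intronic density was 0.725 in the WT list and 0.637 in the Bmi1 KO list, where the coding interval (5.63 to 12.9 per Mb) lay below the intronic one (13.2 to 14.2). Between 45 and 50% G+C the ratio of coding to intronic density was 1.0 in the WT list and 0.885 in the Bmi1 KO list, and between 50 and 55% it was 1.07 and 1.06. Above that the ratio rose, to 1.23 and 1.15 between 55 and 60%, 1.46 and 1.29 between 60 and 65%, and 2.62 and 2.42 at 65% and over, where 122 and 156 coding-exon peaks lay. The counting intervals of the coding and intronic densities did not overlap from 55% upwards in either list. Repeats were rarer: 4.37% and 3.91% of bases at distal coding-exon summits were soft-masked, against 17.6% and 18.6% at intronic ones. In the tiled windows 7.48% were soft-masked over distal coding sequence and 29.9% over introns.

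**Figure D4:**
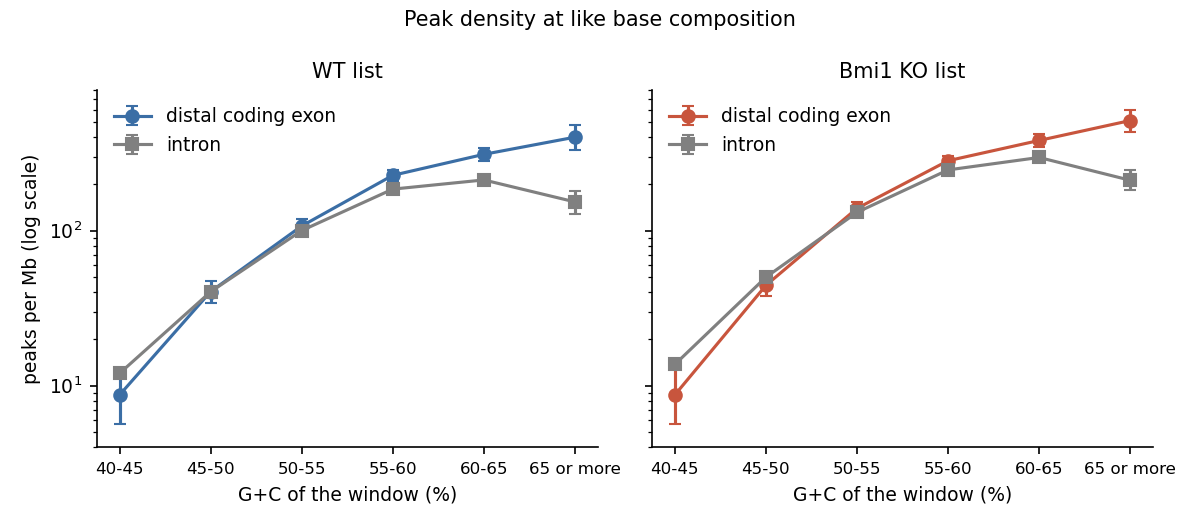
Peaks per Mb (vertical, log scale) against the G+C of the window in % (horizontal) for distal coding exons (coloured circles) and introns (grey squares), 1 panel per list, with exact Poisson 95% intervals. The curves lie together between 45 and 55% and part from 55% upwards, with coding exons 2.62 and 2.42 times as dense at 65% and over.

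Windows of 50 bases to each side of the summit in 5 wholly or almost wholly coding peaks show this range of composition. They are in the direction of the gene, and capitals mark CpG. Eppk1 encodes epiplakin, which binds intermediate filaments, and its window (chr15:76103575-76103675, minus strand) is 64.4% G+C with 4 CpG. Zfp771 encodes a C2H2 zinc finger protein, and its window (chr7:127254303-127254403, plus strand) is 75.2% G+C with 16 CpG. Hey2 encodes a repressor that is induced by Notch and made in cochlear supporting cells, and its window (chr10:30834151-30834251, minus strand) is 61.4% G+C with 0 CpG. Otop1 encodes a proton channel needed for the otoconia of the vestibular organs, and its window (chr5:38300227-38300327, plus strand) is 68.3% G+C with 8 CpG. Ttn encodes titin, the giant spring of striated muscle. Its peak was taken as the least G+C-rich, at 44.3% in the window of 100 bases to each side used for the medians above. In the narrower window printed here (chr2:76749737-76749837, minus strand) it is 50.5% G+C with 0 CpG.
Eppk1, WT list: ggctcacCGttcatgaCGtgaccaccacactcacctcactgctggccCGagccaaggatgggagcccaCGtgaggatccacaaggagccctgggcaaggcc
Zfp771, Bmi1 KO list: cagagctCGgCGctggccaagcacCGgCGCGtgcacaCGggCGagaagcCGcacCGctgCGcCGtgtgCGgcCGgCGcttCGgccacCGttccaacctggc
Hey2, Bmi1 KO list: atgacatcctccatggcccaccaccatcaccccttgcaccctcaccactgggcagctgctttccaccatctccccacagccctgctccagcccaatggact
Otop1, WT list: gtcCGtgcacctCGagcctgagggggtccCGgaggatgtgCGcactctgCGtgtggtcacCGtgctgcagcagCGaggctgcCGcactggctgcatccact
Ttn, Bmi1 KO list: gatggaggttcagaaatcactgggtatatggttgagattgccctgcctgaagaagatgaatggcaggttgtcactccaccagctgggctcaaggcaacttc

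Short motifs were counted in windows of 100 bases to each side of the summit on both strands, as a description of letters and not of binding. A GC box (GGGCGG or CCGCCC), the element read by Sp1 and related factors, was present in 9.79% of windows in the WT list (8.44 to 11.3) and 9.25% in the Bmi1 KO list (8.06 to 10.5), against 4.66% of windows tiled over distal coding sequence and 3.83% and 4.16% of intronic peaks. The E-box CAGCTG was present in 17.5% and 19.6%, against 14.9% of the tiled coding windows. The AP-1 motif TGANTCA was present in 3.02% (2.27 to 3.93) and 4.32% (3.51 to 5.27), against 4.76% of the tiled coding windows and 5.87% and 5.64% of intronic peaks. The SOX motif ACAANG was present in 31.0% and 32.8%, against 37.2% of the tiled coding windows. The CTCF motif was present in 6 of 1757 (0.341%, 0.125 to 0.742) and 3 of 2174 windows (0.138%, 0.0285 to 0.403), against 0.132% of the tiled coding windows. The GC box and the E-box were thus more frequent and the SOX motif less frequent than in the tiled coding windows, beside the difference in G+C given above. Intronic peaks differed in the same directions from windows tiled over introns. There the GC box was in 3.83% and 4.16% against 1.73%, the E-box in 13.3% and 13.5% against 7.62%, and the SOX motif in 33.1% and 32.6% against 37.5%. These shifts were therefore not particular to coding-exon peaks.

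By exon position, most of these peaks lay in inner exons, and last exons held more than their share of coding bases. Inner exons held 1260 of 1757 peaks in the WT list (71.7%) and 1543 of 2174 in the Bmi1 KO list (71.0%). Last exons held 493 (28.1%, 26.0 to 30.2) and 625 (28.7%, 26.9 to 30.7), while they make up 22.0% of distal coding bases. First exons, which mostly lie within 3 kb of a TSS, held 1 and 5 peaks, and genes with an only exon held 3 and 1. Per Mb of distal coding sequence, last exons held 128 and 163 peaks and inner exons 93.1 and 114.

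Exon length moved with position. The median exon under a peak was 316 bp in the WT list and 317 bp in the Bmi1 KO list, against 196 bp for the exon of a median distal coding base. Density rose from 49.8 and 56.6 peaks per Mb in exons of up to 100 bp to 154 and 196 in exons of 1 to 2 kb, and was 126 and 160 in exons over 2 kb, which held 19.4% and 19.9% of the peaks. Among exons of over 500 and up to 1000 bp, inner exons held 159 peaks per Mb in the WT list (133 to 189) and last exons 131 (101 to 168), and in the Bmi1 KO list they held 189 (161 to 222) and 159 (125 to 198). Among longer exons, inner exons held 144 and 179 per Mb and last exons 134 and 171. Within a length class the intervals of inner and last exons overlapped above 200 bp in both lists, and the last exons had the lower density in each class. A peak was wholly coding in 31.0% and 32.1% of cases, and it covered the whole exon in 30.9% and 31.6%.

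**Figure D5:**
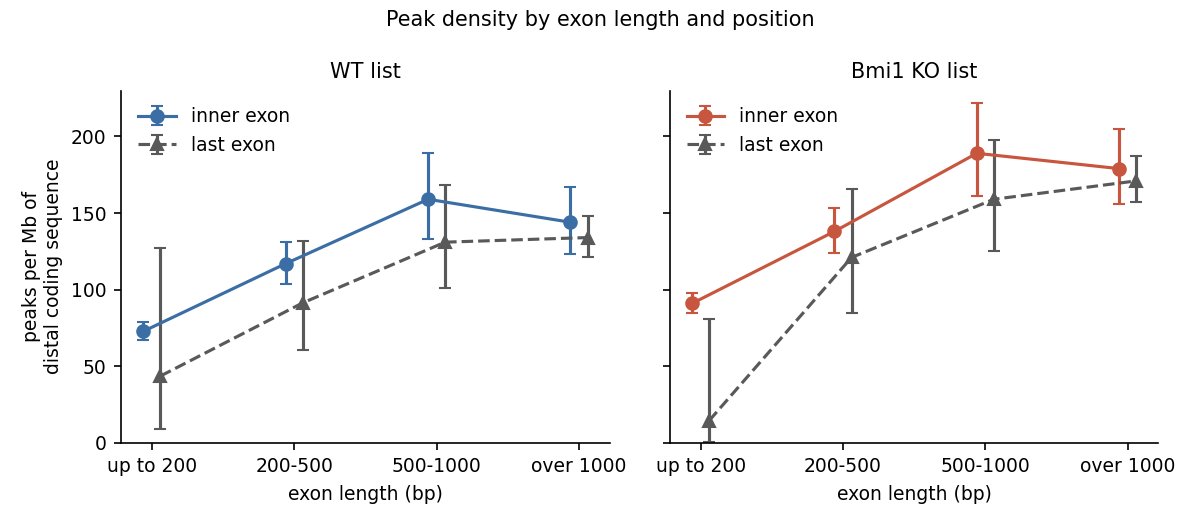
Peaks per Mb of distal coding sequence (vertical axis) against exon length in bp (horizontal) for inner exons (coloured circles) and last exons (grey triangles), 1 panel per list, with exact Poisson 95% intervals. Inner exons rise from 72.8 and 91.0 per Mb at up to 200 bp to 144 and 179 over 1000 bp, where last exons stand at 134 and 171.

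Overlap between the lists, by at least 1 bp, was found for 395 of 1757 distal coding-exon peaks of the WT list (22.5%, 20.5 to 24.5) and for 421 of 2174 of the Bmi1 KO list (19.4%, 17.7 to 21.1). Across all peaks the shares were 24.7% and 18.4%. Promoter peaks overlapped more often, at 43.3% and 32.4%, and intronic peaks less often, at 14.5% and 11.3%. Distal coding-exon peaks overlapped more often than intronic ones in each quintile of strength, from 19.2% against 12.4% in the weakest quintile to 31.3% against 20.2% in the strongest in the WT list, and from 11.6% against 8.35% to 26.5% against 18.5% in the Bmi1 KO list. The counting intervals of both kinds of peak overlapped in the fourth quintile of the WT list and in the weakest of the Bmi1 KO list. Among the few distal coding-exon peaks that reached a −log10 q of 5, 8 of 11 (72.7%, 39 to 94) and 19 of 23 (82.6%, 61.2 to 95) overlapped, against 75% and 56.2% of intronic peaks and 90.6% and 82.9% of all peaks past that threshold. Among all peaks of the strongest quintile, 42.5% and 41.9% overlapped. Overlapping distal coding-exon peaks had a mean G+C of 58.8% and 58.5%, and those without overlap 56.6% and 56.9%, and the part of base composition in the overlap was not tested. The partner was itself a distal coding-exon peak for 302 of the 395 and 304 of the 421, and of the others most lay in introns (75 and 103). Overlap was 28.6% and 23.5% in last exons and 20.1% and 17.7% in inner exons.

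The distal coding-exon peaks that overlapped each other formed 306 pairs in 288 genes. Their summits lay a median of 112 bp apart, and 145 pairs had summits within 100 bp. The strengths of paired peaks were only weakly related: the Spearman correlation of percentiles across pairs was 0.249, and 0.219 without Emp2, as a description of pairs that share a G+C-rich sequence. In 15 pairs both peaks were in the top 10% of their lists. Beside the 4 of Emp2 these were 1 in Eppk1 (27 and 40 reads), 2 in the gastric mucin gene Muc6 (35 and 51, and 39 and 41 reads), and 1 each in Sptbn4, which encodes a spectrin of axons (27 and 37), Trim14 (26 and 35), the zinc finger genes Zfp697 (25 and 33), Zbtb20 (23 and 31) and Zfp978 (23 and 27), the ataxin gene Atxn1 (26 and 28), Elmsan1 (27 and 36) and Ccdc92b (27 and 36). The windows of Eppk1 and of the strongest Muc6 peak of the WT list each had 2 matches in the genome, so their reads could be shared with a copy. Over all distal coding-exon peaks, 1.54% and 1.24% had a second match, against 1.19% and 1.21% of intronic peaks.

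The strongest distal coding-exon peaks without overlap reached similar read numbers. In the WT list they were in Otop1 (29 reads, percentile 98.82), Lpcat1, which encodes a lysophospholipid acyltransferase (27 reads), Ints3, a subunit of the Integrator complex (27 reads), Syne2, which encodes the nuclear envelope protein nesprin-2 (26 reads), and Tmem184b (32 reads over a background of 9.34). In the Bmi1 KO list they were in Hey2 (33 reads, percentile 97.91), Fam186a (33 reads), the sodium channel gene Scn8a (30 reads), the kinase gene Hipk1 (30 reads), and Lingo2 and Rpusd2, which tied at 29 reads. The Hey2 peak at chr10:30833870-30834388 was wholly coding and lay in the last of 5 exons, 7886 bp from the nearest TSS. The Otop1 peak at chr5:38300059-38300405 lay 14209 bp from a TSS. These read numbers lay below those of the weakest Emp2 peak, and a site called in 1 list only was not shown to differ between the genotypes.

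Of the 14218 genes with distal coding sequence, 1487 (10.5%) had a distal coding-exon peak in the WT list and 1805 (12.7%) in the Bmi1 KO list. Both lists had one in 582 genes, the WT list alone in 905 and the Bmi1 KO list alone in 1223. In 288 of the 582 genes the peaks of the lists overlapped, and in 294 they lay at different places. The share of genes rose with coding length, from 2.38% and 2.93% at up to 500 bp of distal coding sequence to 39.3% and 44.6% above 4 kb. Most genes had a single peak per list, 1270 of 1487 and 1517 of 1805.

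The genes with the most peaks over both lists were long, apart from Emp2. Ttn had 6 peaks in the WT list and 8 in the Bmi1 KO list over 94.7 kb of distal coding sequence. Their summits held 14 to 22 reads in the WT list and 17 to 23 in the Bmi1 KO list, and 0 of the 14 overlapped. Of all distal coding-exon peaks 22.5% in the WT list and 19.4% in the Bmi1 KO list overlapped, so most peaks had no overlap. Ryr1, the calcium release channel of skeletal muscle, had 5 and 2 peaks and also no overlap. Plxna2, a semaphorin receptor, had 1 peak in the WT list (17 reads) and 6 in the Bmi1 KO list (17 to 27 reads), and the WT peak overlapped 1 of them in exon 16 of 32. The teneurin gene Tenm2 had 6 peaks in the WT list (17 to 23 reads) and 1 in the Bmi1 KO list (28 reads), with no overlap. Its relative Tenm4 had 5 and 2, of which 1 pair overlapped in the last exon (22 and 27 reads). Emp2 had 15.5 peaks per kb of distal coding sequence over both lists, against 2.06 in Plxna2, 0.148 in Ttn and 0.226 over all distal coding sequence. Genes were not called as gained or lost from these counts.

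Gene groups were read against the share of all genes, 10.5% and 12.7%. Since long genes are hit more often, they were also read against 0.101 and 0.125 peaks per kb of distal coding sequence. The densities of groups are given without counting intervals, many rest on few peaks, and differences between the lists within a group were not tested. Overlap was read against the 22.5% and 19.4% of all distal coding-exon peaks. The median percentile of −log10 p per group ran from 40.1 to 63.8 in the WT list and from 33.5 to 73.7 in the Bmi1 KO list, around the 48.5 and 49.9 of all distal coding-exon peaks. Atypical cadherins, which order planar polarity and the links of hair bundles, had a peak in 4 of 11 genes in the WT list and 9 of 11 in the Bmi1 KO list, or 0.0801 and 0.208 peaks per kb from 5 and 13 peaks. The strongest was in Dchs1 in the WT list (23 reads) and in Celsr1, a planar polarity gene, in the Bmi1 KO list (28 reads). Hair bundle and deafness genes had a peak in 8 and 11 of 25 genes, or 0.140 and 0.148 per kb. Their strongest in the Bmi1 KO list was in Otoa, the otoancorin gene (27 reads).

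Chromatin regulators had a peak in 13 and 18 of 41 genes, or 0.130 and 0.192 per kb, and 8 of 19 peaks in the WT list (42.1%, 20.3 to 66.5) and 8 of 28 in the Bmi1 KO list (28.6%, 13.2 to 48.7) overlapped the other list, with intervals that include the 22.5% and 19.4% of all distal coding-exon peaks. The strongest lay in the last exons of the paralogous acetyltransferase genes Crebbp (WT list, 23 reads) and Ep300 (Bmi1 KO list, 34 reads), both wholly coding and both with a weaker partner in the other list, at percentiles 10.5 and 5.05. C2H2 zinc finger genes had a peak in 49 and 71 of 393 genes, or 0.103 and 0.153 per kb, led by Zfp653 (27 reads) in the WT list and Zfp771 (50 reads over a background of 12.8) in the Bmi1 KO list. In this group 23 of 58 peaks in the WT list (39.7%, 27.0 to 53.4) and 25 of 86 in the Bmi1 KO list (29.1%, 19.8 to 39.9) overlapped the other list, against the same 22.5% and 19.4%. Otic transcription factor genes had a peak in 2 and 7 of 19 genes, or 0.0926 and 0.185 per kb, with the strongest in Zfhx3 (18 reads) and Tshz1 (27 reads). Of their 4 and 8 peaks 0 overlapped, with exact upper bounds of 60.2% and 36.9% that include the share of all distal coding-exon peaks.

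Notch and Wnt pathway genes had a peak in 8 and 9 of 25 genes, or 0.162 and 0.200 per kb, with the strongest in both lists in the endocytic receptor gene Lrp1 (28 and 36 reads, in exons 34 and 25 of 89). Collagen and laminin genes had a peak in 12 and 19 of 53 genes, or 0.0912 and 0.118 per kb, led by Lama4 (22 reads) and Col4a4 (24 reads). Giant cytoskeletal genes had a peak in 15 and 14 of 24 genes, or 0.0760 and 0.119 per kb, led by Eppk1 in both lists. Across this group and the cadherin, deafness, Notch and Wnt, and collagen and laminin groups, overlap ran from 12.5% to 40% in the WT list. In the Bmi1 KO list it ran from 11.8% to 18.8% across the same groups, all below the 19.4% of all distal coding-exon peaks. Bmi1 itself and the dynein gene Dync1i1 had no distal coding-exon peak in either list.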

How the data were processed

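The cochlear epithelium of each genotype gave 1 ATAC-seq library, grouped as GEO's labels give it. Trimmed reads were aligned by the authors using BWA-MEM, and MACS2 was run on each library. The submitters' processing notes name the build mm10, and the versions and MACS2 options are not given in the sources used here. Fold enrichment, as deposited, divides summit reads plus 1 by background reads plus 1, a ratio, and the deposited −log10 p and −log10 q come from a Poisson model. The deposited score was not used.

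Peaks on chromosomes 1 to 19 were classed by their centre with GENCODE vM21. Each peak's whole read number and background were solved from the deposited fold and −log10 p, with the p matched to within 0.001 on the −log10 scale for 100% of peaks. The depth behind these numbers is unknown beyond the background, so precision was given as exact binomial (Clopper-Pearson) and Poisson 95% intervals. G+C, motifs and matches (minimap2 2.31-r1302, at least 80% of the window at 90% identity) were taken from windows of 100 bases to each side of the summit in chromosomes of GRCm38. Scripts used Python 3.11.15, numpy 2.4.6, pandas 2.3.3, scipy 1.17.1 and samtools 1.23.1. The overlap and read-number steps were tested on simulated data, and the classing of peaks was not.

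Genes were named by rule: the 5 strongest peaks per list, the 5 strongest without overlap (ties kept), the 6 genes with most peaks, the strongest peak of each gene group, Dync1i1 and Bmi1. For 1 gene group, the strongest peak of the WT list is not reported here. Pairs in the top 10% of both lists and the 5 printed windows were chosen after their values were seen. The peaks, gene groups and comparisons were chosen with earlier results of these data known. Alternatives are given in the closing section.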

Additional observations from a re-analysis of the deposited data

Results flagged for a closer look

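Chromosome X was outside the comparisons. On it, 14 distal coding-exon peaks lay in the WT list and 9 in the Bmi1 KO list. This was 18.4 and 11.8 per Mb of distal coding sequence, against 101 and 125 on chromosomes 1 to 19. Of these peaks on chromosome X 0 overlapped the other list, against 22.5% and 19.4% of distal coding-exon peaks on chromosomes 1 to 19. All peaks on chromosome X numbered 487 and 724, against 77092 and 99683 on chromosomes 1 to 19, so few peaks of any kind lay there. The overlap of all peaks on chromosome X is not given here.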

How the results depend on the processing

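Of 51 alternative values, 27 stayed within 1.5 times the main count or within the main 95% interval, and 24 did not. More than 10 kb from a TSS, the peaks numbered 778 in the WT list and 934 in the Bmi1 KO list, the last-exon shares were 24.2% and 26.2%, and the genes numbered 249 in both lists, 410 in the WT list only and 527 in the Bmi1 KO list only. With q under 0.05 the peaks numbered 897 and 1352, the genes 277 in both lists and 541 in the WT list only, and overlap in the Bmi1 KO list was 22.3%. With a −log10 q of at least 5 the peaks numbered 11 and 23, overlap was 72.7% and 82.6%, and the last-exon shares were 18.2% and 34.8%, each over those few peaks, of which 4 per list were of Emp2. A reciprocal overlap of 50% gave 11.7% and 9.61%, and overlap with a distal coding-exon peak only gave 17.2% and 14%. Position among coding exons alone gave last-exon shares of 25% and 25.8%. The cause of the shifts in shares was not tested, other than the narrower definitions of overlap and position. Without Emp2, chosen after seeing the data, overlap was 22.3% and 19.2%. An equal number of peaks per list, by −log10 p, gave 1757 and 1683 distal coding-exon peaks, so the order of the lists turned. No paired analysis was possible because each genotype had 1 library, and no replicate could be left out. The lowest backgrounds, of 6.32 and 8.04 reads, limit what could be called in either list.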
